A study of Mus musculus with 4 samples.

Results

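Germline and meiosis genes were followed as a set of 45 genes of the synaptonemal complex, the meiotic chromosome axis, meiotic recombination, the piRNA pathway, the RNA-binding factors of germ cells and related functions. The 45 genes were taken from a list of names that was drawn up with earlier results of these data known, and all 45 were found by their Ensembl identifier among the 48526 genes of the count files. RNA-seq had been performed in R1 cells, an established line of mouse ESCs (embryonic stem cells), with 2 wild-type (WT) replicates and 2 replicates of *Zfp296* KO clone 2 (KO2), which was derived from R1 ESCs with CRISPR/Cas9 and a guide RNA against the first exon of *Zfp296*. ZFP296 is a zinc finger protein of ESCs that binds the NuRD chromatin remodelling complex. According to the methods, R1 ESCs were grown on gelatine in serum, LIF and inhibitors of MEK and GSK3, RNA was isolated in duplicate, and ribosomal RNA was depleted. KO2 is a single clone, so an effect of the *Zfp296* KO and a difference of this clone from the WT cells cannot be told apart. Nothing states that the duplicates came from separate cultures, so p-values measure only the spread between these samples, which may be technical.

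In meiosis, cohesin rings and HORMA domain proteins build an axis along each chromosome, homologous axes are zipped together by the synaptonemal complex, and programmed DNA breaks are repaired by recombination. In male germ cells, small RNAs bound by PIWI proteins (piRNAs) guide the silencing of transposons, and Tudor domain proteins gather this machinery in cytoplasmic granules. Many of these genes have CpG-rich promoters that are kept silent in somatic cells by DNA methylation and in ESCs also by PRC1.6, a Polycomb complex that holds the DNA-binding pairs MGA with MAX and E2F6 with DP1. MGA and MAX bind the E-box letters CACGTG. ESCs express a part of the germline programme at low level.

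The WT libraries held 2829914 and 4334499 gene counts and the KO2 libraries 7470907 and 7437294, so KO2 was the more deeply sequenced line. Levels are given as CPM, which are counts scaled to library size, and 3 counts correspond to 0.380 to 1.12 CPM. The *Zfp296* transcript itself was at 11.6 and 7.33 CPM in WT and at 52.8 and 37.7 CPM in KO2, a log2 fold change of 2.32 (SE 0.29; adjusted p = 4.6e-05, edgeR). It was thus higher in KO2. These counts cover the whole gene and cannot show a small deletion or insertion in its first exon, so they do not check the KO label. The paper reports that its KO clones were examined by sequencing and by mass spectrometry. It also names a difference in ZFP296 depletion between its KO lines as a possible source of variance. For the Y-linked gene *Ddx3y*, 0 and 1 reads were counted in the WT libraries against 1979 and 2197 in the KO2 libraries, and *Uty* and *Eif2s3y* had no count in WT, although R1 is a male line. The 2 lines thus differed in more than the targeted gene, nothing in the labels accounts for the missing Y-linked RNA in WT, and in every comparison of KO2 with WT the *Zfp296* KO and such other differences cannot be told apart. All 10 listed ESC markers were measured, with summed levels of 6169 to 6293 CPM in WT and 5945 to 6403 CPM in KO2, and edgeR called 1 of them, *Sox2* (log2 fold change -0.79). DESeq2 also called *Dppa5a*, which was higher in KO2 (log2 fold change 0.35, adjusted p = 0.027). The 5 fibroblast markers summed to at most 3.54 CPM in any library, and those of trophoblast (5 genes), mesendoderm (5) and primitive endoderm (6) to at most 18.4 CPM, with *T*, *Mesp1* and *Postn* at 0. The 6 primordial germ cell markers summed to 413 to 458 CPM in WT and 441 to 456 CPM in KO2. Among these 6, *Prdm1* was called lower (log2 fold change -1.50) and *Tfap2c* higher (0.59), and *Kit*, which was not called, made up 213 CPM of the sum in the WT mean and 181 CPM in the KO2 mean. The 5 formative epiblast markers summed to 76.6 to 79.7 CPM in WT and 96.9 to 102 CPM in KO2, with *Fgf5* at 0. Of these 5, 3 were tested and 0 were called. The 5 measured markers of 2-cell-like cells summed to 494 to 551 CPM in WT and 417 to 447 CPM in KO2. Nearly all of that came from *Eif1a*, which was not called (adjusted p = 0.15, edgeR). The other 4 were too low to be tested, so these sums describe *Eif1a* rather than 2-cell-like cells.

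Of the 45 germline and meiosis genes, 38 had enough counts for the test, 14 were lower in KO2, 1 was higher, 23 did not pass the test and 7 were too low to be tested. Across all 12883 tested genes, 3.04% were called lower and 2.60% were called higher in KO2 (quasi-likelihood test of edgeR, p adjusted by Benjamini-Hochberg over all tested genes and under 0.05). Since the genes were listed with earlier results known, the contrast between these shares and the 14 of 38 is a description and not independent evidence of a direction. The genes that fell were *Dazl*, *Tex15*, *Fkbp6*, *Stk31*, *Tdrd12*, *Mov10l1*, *Tex19.1*, *Sycp3*, *Syce1*, *Stag3*, *Hormad1*, *Stra8*, *Taf7l* and *Clgn*, and the gene that rose was *Sohlh2*. The median log2 fold change of the 38 tested genes was -0.70, with 28 below 0 and 10 above, against a median of 0.01 over all tested genes. Both KO2 values lay below both WT values for 24 of the 38 genes (23.4% of all tested genes) and above them for 7 (25.4%). Of the 38 genes, 5 passed the filter on low counts through 1 group alone, *Taf7l* and *Slc25a31* through WT and *Dmc1*, *Majin* and *Brdt* through KO2, so these were bound to differ between the groups. Together, the 45 genes made up 2338 and 2340 CPM in the WT libraries and 1141 and 1201 CPM in the KO2 libraries. Without *Dazl*, the most abundant of them, the sums were 1741 and 1697 CPM in WT and 1011 and 1058 CPM in KO2. In these bulk samples, fewer cells that express a gene and less of its RNA per cell cannot be told apart.

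**Figure D1:**
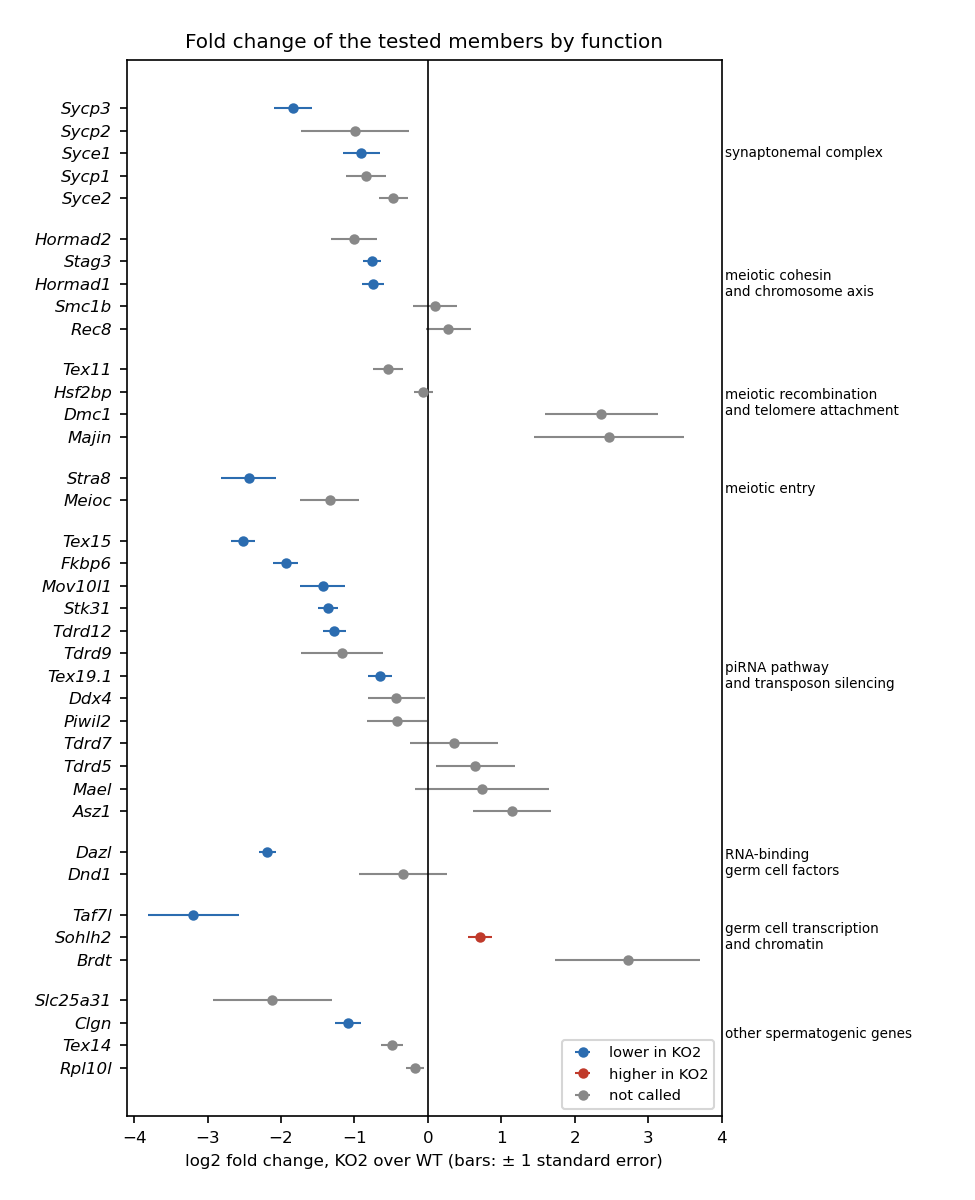
Log2 fold change of KO2 over WT for the 38 tested germline and meiosis genes, grouped by function, with bars of 1 standard error. Blue points mark the 14 genes called lower, the red point marks *Sohlh2*, and the grey points mark the 23 genes that did not pass the test. Of these, *Dmc1*, *Majin* and *Brdt* lie furthest to the right, and *Majin* and *Brdt* have the widest bars.

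The promoters of the called genes were inspected for the letters CACGTG, since this E-box is what MGA and MAX of PRC1.6 recognise. Promoters of 300 bases, from 250 bases before to 50 after each transcription start, were taken from RefSeq (GRCm38.p6) and held an entry for 37 of the 45 genes, with no entry for *Tex15*, *Clgn*, *Spo11*, *Tex11*, *Majin*, *Piwil2*, *Tdrd6* and *Dnd1*. A gene with several start sites was counted if any of its promoters held the letters, on either strand. Of the 12 genes called lower with an entry, 7 had at least 1 CACGTG, namely *Sycp3*, *Stag3*, *Hormad1*, *Stk31*, *Fkbp6*, *Taf7l* and *Mov10l1*. The other 5, *Dazl*, *Stra8*, *Syce1*, *Tdrd12* and *Tex19.1*, had none in this window. Among the tested genes that were not called, 7 of 19 held CACGTG, as did 2 of the 5 untested genes with an entry, and 16 of all 37 (43.2%). CACGTG was found in 8.09% of all 27025 genes in the promoter table, in 12.4% of the 8269 tested genes that matched it and in 17.7% of the 260 genes lower in KO2 that matched it. The core E2F letters TCCCGC, searched on both strands, were held by 4 of the 12 genes called lower, 13 of the 19 tested genes that were not called and 0 of the 5 untested genes, against 5959 of all 27025 genes in the table and 41.6% of the tested genes. A TCCCGC and a CACGTG match can share at most 1 base. The median number of CpG dinucleotides per promoter was 18.5 in the genes called lower, 21 in those not called and 23 over all tested genes.

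The parts of the 7 promoters around CACGTG are shown here because these genes fell in KO2 and carry these letters. Each runs 5′ to 3′ along the strand of the gene, with up to 40 bases on either side and ending before the transcription start, and the capitals mark CACGTG. Coordinates are those of GRCm38.p6.
Sycp3, chr10:88459483-88459586, plus strand: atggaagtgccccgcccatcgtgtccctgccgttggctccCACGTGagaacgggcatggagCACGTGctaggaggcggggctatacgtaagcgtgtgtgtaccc
Hormad1, chr3:95559580-95559676, plus strand: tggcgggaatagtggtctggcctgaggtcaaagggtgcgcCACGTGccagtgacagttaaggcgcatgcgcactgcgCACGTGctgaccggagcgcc
Fkbp6, chr5:135350045-135350185, minus strand: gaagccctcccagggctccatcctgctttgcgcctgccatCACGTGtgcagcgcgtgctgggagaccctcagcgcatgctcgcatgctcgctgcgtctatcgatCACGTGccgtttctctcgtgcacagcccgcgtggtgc
Stk31, chr6:49395444-49395529, plus strand: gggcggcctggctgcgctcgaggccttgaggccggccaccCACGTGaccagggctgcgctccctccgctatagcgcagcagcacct
Taf7l, chrX:134476494-134476579, minus strand: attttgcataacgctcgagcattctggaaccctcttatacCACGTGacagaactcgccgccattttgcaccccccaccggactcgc
Stag3, chr5:138280299-138280384, plus strand: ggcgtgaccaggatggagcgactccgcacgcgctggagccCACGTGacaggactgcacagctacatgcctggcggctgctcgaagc
Mov10l1, chr15:88982744-88982793, plus strand: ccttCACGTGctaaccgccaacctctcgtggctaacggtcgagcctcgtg
*Sycp3*, *Hormad1* and *Fkbp6* carried the letters at 2 places, with the first base at positions -64 and -43, -57 and -20, and -101 and -37 from the transcription start. In *Stk31* and *Taf7l* they began at -55 and -49, in *Stag3* at -170 and in *Mov10l1* at -246. A match of letters is a description of the sequence, and binding of MGA or MAX in these cells was not measured here.

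Among the RNA-binding germ cell factors, *Dazl* fell and was also the most abundant of the 45 genes. DAZL binds the 3′ ends of germ cell mRNAs and promotes their translation, and it is required for germ cells to become competent for meiosis. *Dazl* (ENSMUSG00000010592, chr17:50418719-50432924, minus strand, mm9) was at 597 and 643 CPM in WT and at 130.1 and 143 CPM in KO2. The 2 KO2 libraries thus lay far below the 2 WT libraries, with a WT mean of 620 ± 32.5 CPM (SD, n = 2) and a KO2 mean of 136 ± 8.85 CPM (SD, n = 2). The log2 fold change was -2.19 (SE 0.11; adjusted p = 3.2e-10, edgeR), which is 4.55-fold lower in KO2. *Dnd1*, whose product binds mRNA 3′ ends and protects primordial germ cells, was at 4.85 and 6.85 CPM in WT and at 1.78 and 7.89 CPM in KO2, so the groups overlapped and the gene was not called (adjusted p = 0.83). *Dnd1* shares exon bases with *Wdr55* on the opposite strand. *Nanos3*, which supports the survival of primordial germ cells, reached at most 12 counts in a library and was not tested.

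**Figure D2:**
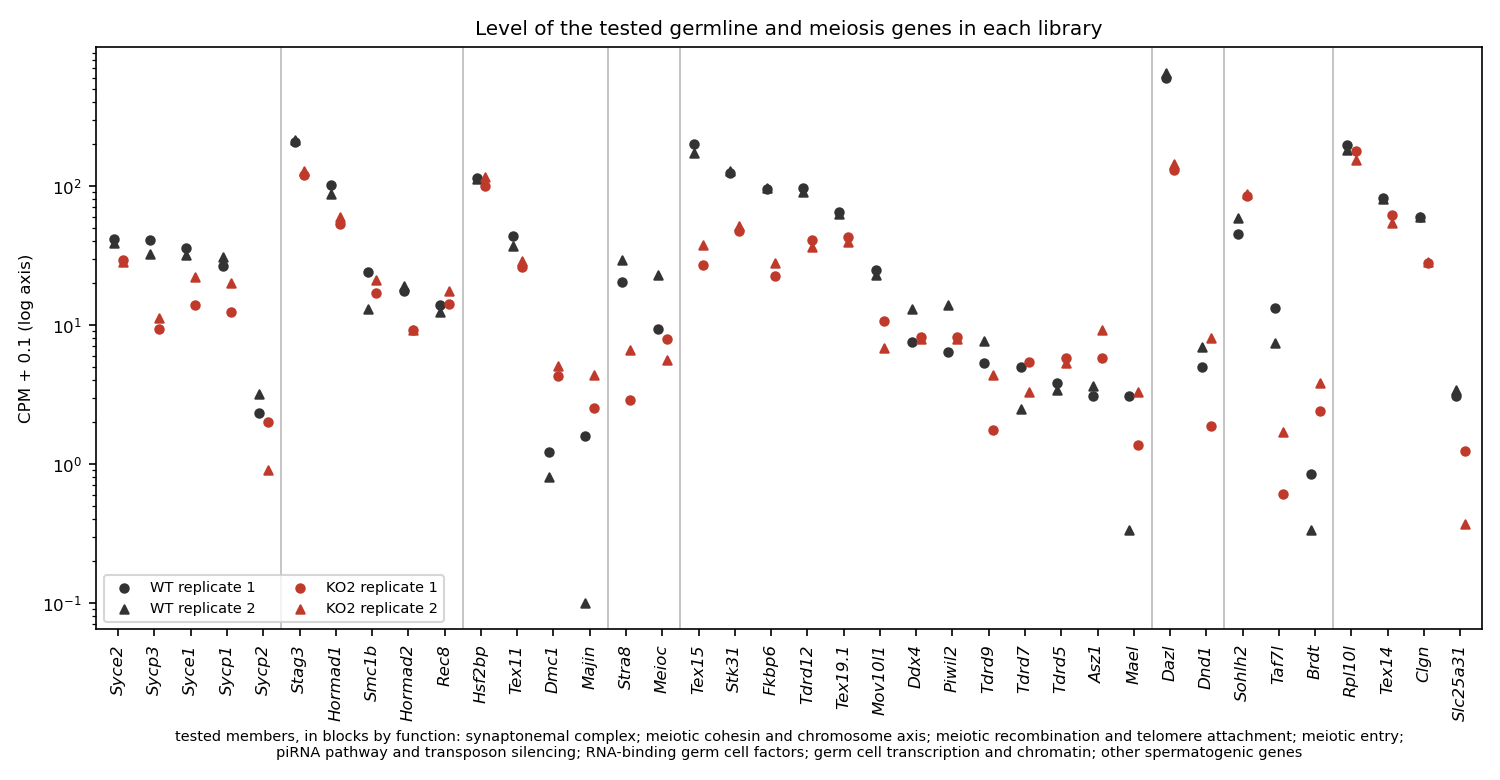
Level of each tested germline and meiosis gene in the 4 libraries, as CPM + 0.1 on a log axis, in blocks by function. Circles and triangles are replicates 1 and 2, black is WT and red is KO2. In the block of the piRNA pathway, the 6 most abundant genes have both red points below both black points, whereas the groups overlap for 4 of the other 7. Over all tested genes, 23.4% have both KO2 values below both WT values.

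Of the 16 genes of the piRNA pathway and transposon silencing, 13 were tested, 6 were lower in KO2 and 0 were higher. Over all tested genes, 3.04% were called lower and 2.60% higher. *Tex15*, which acts in meiotic recombination and in piRNA-guided DNA methylation of transposons, showed the largest change of the 6. It was at 198 and 172 CPM in WT and at 27.0 and 37.6 CPM in KO2, a log2 fold change of -2.52 (SE 0.16; adjusted p = 6.7e-09), or 5.72-fold lower. *Fkbp6*, a co-chaperone needed for piRNA production and chromosome pairing, was at 95.03 and 95.9 CPM in WT and at 22.2 and 27.8 CPM in KO2. Its log2 fold change was -1.93 (SE 0.17; adjusted p = 7.1e-07), and its WT values differed from each other by less than those of the other 5 genes. *Stk31*, which encodes a germ cell protein with a Tudor domain and a kinase domain, was at 124 and 128 CPM in WT and at 47.4 and 50.9 CPM in KO2 (log2 fold change -1.36, SE 0.14, adjusted p = 6.5e-06). *Tdrd12*, a Tudor domain helicase of secondary piRNA production, was at 95.8 and 90.5 CPM in WT and at 40.6 and 36.4 CPM in KO2 (log2 fold change -1.27, SE 0.16, adjusted p = 4.4e-05). For these 4 genes, the distance between the groups was several times the distance between replicates.

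*Mov10l1*, the RNA helicase that feeds precursors into piRNA processing, was at 24.6 and 22.7 CPM in WT and at 10.7 and 6.68 CPM in KO2, a log2 fold change of -1.43 (SE 0.31; adjusted p = 0.0091). Its call was lost without WT replicate 1 (adjusted p = 0.084) and without WT replicate 2 (adjusted p = 0.054), with log2 fold changes of -1.38 and -1.50. *Tex19.1*, which restrains retrotransposons in germ cells, placenta and ESCs, was at 65.2 and 63.1 CPM in WT and at 42.6 and 39.2 CPM in KO2. Its log2 fold change was -0.65 (SE 0.17; adjusted p = 0.026), and the call was lost with DESeq2 (adjusted p = 0.078) and without any single library (adjusted p = 0.058 to 0.11). Its neighbour and close copy *Tex19.2* had at most 7 counts in a library.

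The 7 tested piRNA pathway genes that were not called lay at lower levels, between 1.61 and 10.2 CPM in the mean of the WT replicates. *Tdrd9*, a helicase with a Tudor domain, had the largest absolute log2 fold change of them (-1.16, SE 0.56, adjusted p = 0.26), with 5.22 and 7.56 CPM in WT and 1.65 and 4.28 CPM in KO2. *Asz1*, a scaffold of piRNA production at mitochondria, pointed the other way, with 2.98 and 3.54 CPM in WT and 5.71 and 9.09 CPM in KO2 (log2 fold change 1.15, SE 0.53, adjusted p = 0.25). The PIWI protein gene *Piwil2* and the germ cell helicase gene *Ddx4* overlapped between the groups and were near 10 CPM in WT (means 10.02 and 10.2) and 7.93 CPM in KO2. *Tdrd5*, *Tdrd7* and *Mael* had log2 fold changes of 0.65, 0.35 and 0.74 with adjusted p-values of 0.56 to 0.82. The standard errors of these 7 log2 fold changes were 0.39 to 0.91, so the absence of a call does not show that these genes were alike in the 2 lines.

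All 5 genes of the synaptonemal complex were tested, with 2 called lower (3.04% of all tested genes) and 0 higher (2.60%). Both KO2 values lay below both WT values for each of the 5, an order found for 23.4% of all tested genes. *Sycp3*, which encodes the structural protein of the lateral elements, was at 41.0 and 32.4 CPM in WT and at 9.26 and 11.1 CPM in KO2. The log2 fold change was -1.83 (SE 0.26; adjusted p = 0.00019), or 3.56-fold lower. *Sycp3* (ENSMUSG00000020059, chr10:87922314-87935981, mm9) overlaps exons of *Chpt1* on the opposite strand, and it is not stated whether the counting used the strand. *Chpt1* was at 55.9 and 98.5 CPM in WT and at 66.6 and 100.4 CPM in KO2, with overlapping groups and a log2 fold change of 0.09. *Syce1*, a protein of the central element, was at 35.4 and 31.9 CPM in WT and at 13.8 and 21.9 CPM in KO2, a log2 fold change of -0.91 (SE 0.25; adjusted p = 0.042). That call lay close to the threshold and was lost with DESeq2 (adjusted p = 0.12), with the older quasi-likelihood method (adjusted p = 0.053) and without WT replicate 1, WT replicate 2 or KO2 replicate 1 (adjusted p = 0.20, 0.11 and 0.31).

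The transverse filament gene *Sycp1* was at 26.5 and 30.5 CPM in WT and at 12.3 and 19.8 CPM in KO2, a log2 fold change of -0.84 (SE 0.27) that did not pass the test (adjusted p = 0.077). It passed without KO2 replicate 2 (log2 fold change -1.23, adjusted p = 0.0083). *Sycp2*, the partner of SYCP3 in the lateral element, had the largest absolute log2 fold change of those not called (-0.99, SE 0.74, adjusted p = 0.51), on 6 to 15 counts per library. *Syce2*, another protein of the central element, was at 41.4 and 38.5 CPM in WT and at 29.2 and 28.3 CPM in KO2 (log2 fold change -0.47, adjusted p = 0.19).

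In the group of meiotic cohesin and chromosome axis genes, 2 of 5 were lower (3.04% of all tested genes) and 0 were higher (2.60%). *Stag3*, the meiotic STAG subunit of cohesin, was at 206 and 212 CPM in WT and at 120.1 and 127 CPM in KO2, a log2 fold change of -0.76 (SE 0.12; adjusted p = 0.00067). *Hormad1*, which marks axes that are not yet synapsed, was at 102 and 87.4 CPM in WT and at 53.0 and 59.6 CPM in KO2. Its log2 fold change was -0.75 (SE 0.15; adjusted p = 0.0057), and the call was lost without WT replicate 1 (log2 fold change -0.63, adjusted p = 0.079). Its paralog *Hormad2* was at 17.5 and 18.9 CPM in WT and at 9.13 and 9.09 CPM in KO2. The groups did not overlap, but the log2 fold change of -1.005 (SE 0.31) did not pass the test (adjusted p = 0.068). It passed once the libraries were thinned to the size of the smallest (adjusted p = 0.044). The other cohesin subunits of meiosis, *Rec8* and *Smc1b*, were at means of 13.04 and 18.4 CPM in WT and 15.7 and 18.9 CPM in KO2, with log2 fold changes of 0.28 and 0.10 (adjusted p = 0.69 and 0.90). The direction for *Smc1b* was reversed when WT replicate 2 or KO2 replicate 2 was left out (log2 fold changes -0.33 and -0.06).

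Both genes of meiotic entry had both KO2 values below both WT values, as did 23.4% of all tested genes. *Stra8*, which is induced by retinoic acid and starts the meiotic programme, was at 20.1 and 29.3 CPM in WT and at 2.79 and 6.55 CPM in KO2. This is a log2 fold change of -2.44 (SE 0.38; adjusted p = 0.00052), or 5.43-fold lower, with the groups well apart although each replicate pair also differed. *Meioc*, which stabilises the meiotic prophase together with YTHDC2, had values of 9.32 and 22.7 CPM in WT and 7.86 and 5.48 CPM in KO2. Its log2 fold change was -1.34 (SE 0.40) and lay just outside the threshold (adjusted p = 0.057). It passed with RLE normalization (adjusted p = 0.042), with a stricter filter of 10 counts per library (adjusted p = 0.049) and without WT replicate 1 (adjusted p = 0.037) or KO2 replicate 1 (adjusted p = 0.016).

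Of the 4 tested genes of meiotic recombination and telomere attachment, 0 passed edgeR's test. DESeq2 gave an adjusted p only for *Hsf2bp* and *Tex11* and called 0 of these 2. An unadjusted p under 0.05 in edgeR was found for 3 of the 4, with 0.0063 for *Dmc1*, 0.015 for *Tex11* and 0.025 for *Majin*, and for 2499 of all 12883 tested genes. *Dmc1* and *Majin* had passed the filter on low counts through KO2 alone, so a higher value in KO2 was fixed in advance. Their p-values and the intervals of their ratios given below are thus no evidence of a rise. *Hsf2bp*, which binds BRCA2 in meiosis, was abundant and nearly level, with 113 and 111 CPM in WT and 99.0 and 117 CPM in KO2 (log2 fold change -0.06, SE 0.14, adjusted p = 0.87). The X-linked crossover gene *Tex11* was at 43.2 and 36.9 CPM in WT and at 25.9 and 28.7 CPM in KO2 (log2 fold change -0.54, SE 0.20, adjusted p = 0.14). *Dmc1*, the recombinase of meiosis, had 3 counts in each WT library and 33 and 37 in the KO2 libraries. Its pooled ratio of KO2 to WT was 5.25 (95% exact interval 2.30 to 14.8, counting error only), and its adjusted p was 0.081. *Majin*, which ties telomeres to the nuclear envelope, had the largest absolute log2 fold change of the group (2.47, SE 1.02, adjusted p = 0.18), on 4 and 0 counts in the WT libraries against 19 and 32 in those of KO2. Its pooled ratio was 5.74 (2.11 to 21.9).

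The 3 genes of germ cell transcription and chromatin went in different directions. *Taf7l*, the X-linked germ cell form of a TFIID subunit, was at 13.04 and 7.33 CPM in WT and at 0.507 and 1.604 CPM in KO2. These levels rest on 35 and 31 counts in WT and on 4 and 12 counts in the more deeply sequenced KO2 libraries. *Taf7l* had passed the filter on low counts through WT alone, so a lower value in KO2 was fixed in advance. The log2 fold change of -3.19 (SE 0.62; adjusted p = 0.0040) was the largest decrease among the called genes, and its call was lost without WT replicate 1 (log2 fold change -2.79, adjusted p = 0.070). *Sohlh2*, a bHLH transcription factor of early germ cell differentiation, was the only called gene that rose. It was at 45.1 and 59.1 CPM in WT and at 85.0 and 87.0 CPM in KO2, a log2 fold change of 0.71 (SE 0.16; adjusted p = 0.013), and the call was lost without WT replicate 1 (log2 fold change 0.54, adjusted p = 0.12). *Brdt*, the testis bromodomain protein, was counted 2 times and 1 time in the WT libraries and 18 and 28 times in the KO2 libraries. Its pooled ratio was 6.90 (95% exact interval 2.22 to 34.7, counting error only), and edgeR did not call it (adjusted p = 0.12). *Brdt* had passed the filter through KO2 alone, so a higher value in KO2 was fixed in advance and the interval is no evidence of a rise.

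Of the 5 other spermatogenic genes, 4 were tested and 1 was lower (3.04% of all tested genes). *Clgn*, a chaperone of the testis endoplasmic reticulum needed for sperm surface proteins, was at 59.6 and 59.3 CPM in WT and at 27.8 and 28.2 CPM in KO2. The replicates of each group were nearly identical, and the log2 fold change was -1.09 (SE 0.18; adjusted p = 0.00090), or 2.12-fold lower. *Tex14*, which keeps the bridges between germ cells open, was at 81.2 and 80.1 CPM in WT and at 61.3 and 53.7 CPM in KO2 (log2 fold change -0.49, SE 0.15, adjusted p = 0.070). *Slc25a31*, the germ cell ADP/ATP carrier, had the largest absolute log2 fold change of those not called (-2.12, SE 0.81, adjusted p = 0.15) on 8 and 14 WT counts and 9 and 2 KO2 counts. *Slc25a31* had passed the filter on low counts through WT alone, so its direction was fixed in advance. *Rpl10l*, an autosomal retrogene copy of the ribosomal protein gene *Rpl10*, was at 197 and 180 CPM in WT and at 179 and 153 CPM in KO2. Its counts are uncertain in both directions, since reads of a near-identical copy may have been split, dropped or assigned to the wrong copy.

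Too low to be tested were *Spo11*, which cuts the DNA for meiotic recombination (at most 4 counts in a library), *Mei1*, which acts with it (4), the germ cell surface gene *Tex101* (1), the mitochondrial piRNA nuclease gene *Pld6* (10), the Tudor domain genes *Tdrd1* (7) and *Tdrd6* (0) and *Nanos3* (12). *Tdrd6* had no count in any library, which allows a level of up to 1.12 CPM in WT replicate 1 and 0.380 CPM in KO2 replicate 1. A difference between WT and KO2 was not detectable at this depth for these 7 genes.

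The scale of CPM per kilobase of exon allows levels of different genes to be compared. On it, *Dazl* (206) and *Rpl10l* (185), whose counts are uncertain, stood highest in WT. They were followed by *Fkbp6* (55.2), *Hormad1* (54.8), *Stk31* (38.9), *Hsf2bp* (37.8), *Stag3* (36.5) and *Tex19.1* (34.3). The replicate values of *Fkbp6* and *Hormad1* overlapped, so their order was not resolved, and the means from *Stk31* to *Tex19.1* lay close together. In KO2, *Rpl10l* (163) stood first, again on uncertain counts. *Dazl* had 45.2, *Sohlh2* (36.4) and *Hsf2bp* (36.3) came next, and *Fkbp6* had 14.5. The genes called lower included 6 of the 8 genes that were highest in WT. The WT values behind this ranking also enter the fold change, and genes with more counts are easier to call. The share of calls among all genes of similar level was not computed, so this overlap is a description only.

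**Figure D3:**
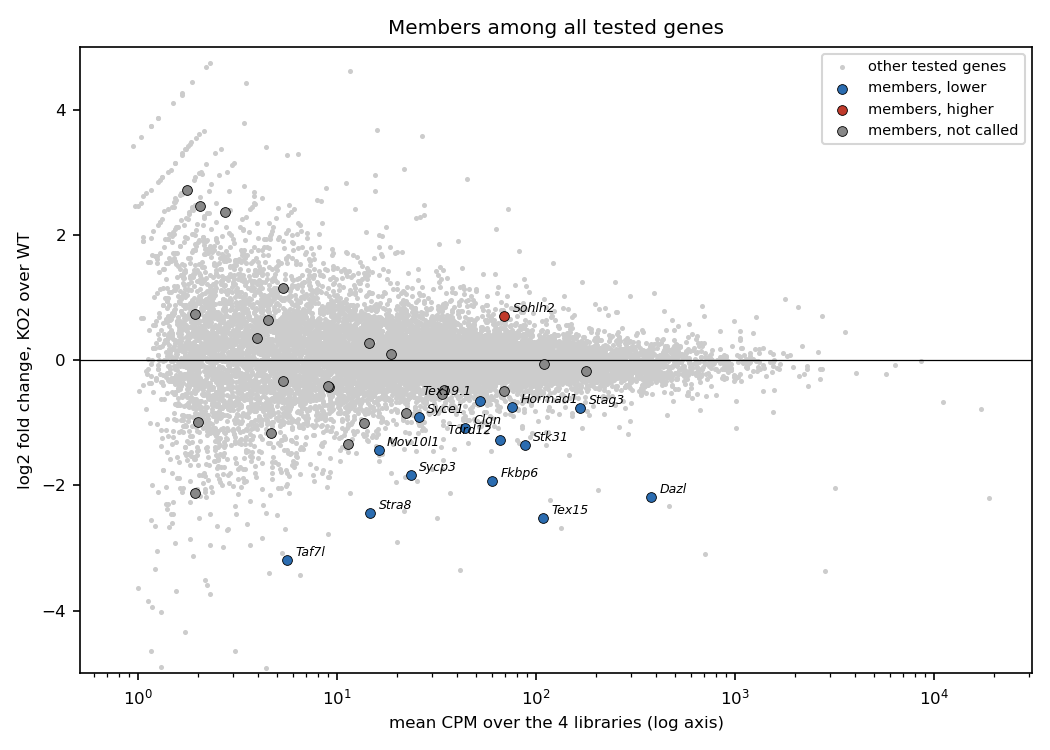
Log2 fold change of KO2 over WT against the mean CPM of the 4 libraries (log axis) for the 12883 tested genes in grey, with the 38 tested germline and meiosis genes on top. *Dazl* and *Tex15* lie far below the grey cloud at their level, and most of the genes that were not called sit inside the cloud at low CPM. Of the grey genes, 11 lie beyond the axis limits.

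A wider list of 62 other germline genes was examined in the same way, and 58 of them were found and 38 tested. *Ankrd31*, *Bend2*, *Tdrd10* and *Lhx8* were not analysed here. In this list, 5 genes were lower (13.2% of the 38, against 3.04% of all tested genes) and 1 was higher (2.60% of all tested genes). The median log2 fold change was -0.23, against 0.01 over all tested genes. *Prdm1*, which specifies primordial germ cells, was at 23.1 and 26.5 CPM in WT and at 6.47 and 11.2 CPM in KO2 (log2 fold change -1.50, adjusted p = 0.0067). *Dmrt1*, a regulator of mitosis and meiosis in spermatogonia, was at 18.3 and 12.5 CPM in WT and at 5.33 and 6.15 CPM in KO2 (log2 fold change -1.38, adjusted p = 0.037), and DESeq2 did not call it (adjusted p = 0.084). *Six6os1*, a protein of the central element, had a log2 fold change of -0.82 (adjusted p = 0.0021), the RNA-binding protein gene *Elavl2* of -0.69 (adjusted p = 0.016) and the Tudor domain gene *Rnf17* of -0.50 (adjusted p = 0.0070). *Tfap2c*, a further factor of primordial germ cell specification, rose from 90.9 and 89.3 CPM in WT to 129.5 and 141 CPM in KO2 (log2 fold change 0.59, adjusted p = 0.012). Without WT replicate 1, none of the 6 were called by edgeR (adjusted p = 0.053 to 0.21). Without WT replicate 2, the calls of *Dmrt1*, *Elavl2*, *Prdm1* and *Tfap2c* were lost (adjusted p = 0.050 to 0.084), without KO2 replicate 1 those of *Dmrt1* and *Rnf17* (adjusted p = 0.12 and 0.051), and without KO2 replicate 2 those of *Elavl2* and *Tfap2c* (adjusted p = 0.10 and 0.071).

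All 28 listed genes of PRC1.6, DNA methylation and H3K9 methylation were tested. The list includes *Tet1* and *Tet2*, whose products act in DNA demethylation, so not all 28 are silencers. Of the 28, edgeR called 3 lower in KO2 (10.7%, against 3.04% of all tested genes) and 0 higher (2.60% of all tested genes). The median log2 fold change of all 28 was -0.02. *Dnmt3l*, the cofactor of de novo DNA methylation in germ cells, was at 23.5 and 36.9 CPM in WT and at 16.9 and 11.0 CPM in KO2 (log2 fold change -1.15, SE 0.28, adjusted p = 0.022), and its call was lost with DESeq2 (adjusted p = 0.065), without WT replicate 2 (log2 fold change -0.75, adjusted p = 0.28) and without KO2 replicate 2 (adjusted p = 0.064). The histone deacetylase gene *Hdac2* was at 469 and 433 CPM in WT and at 302 and 321.5 CPM in KO2 (log2 fold change -0.53, adjusted p = 0.0051), and *Wdr5* was at 407 and 422 CPM in WT and at 317 and 312 CPM in KO2 (log2 fold change -0.40, adjusted p = 0.032). The call of *Hdac2* was lost without WT replicate 1 (adjusted p = 0.078) and that of *Wdr5* without any single library (adjusted p = 0.093 to 0.14). Both belong to the 14 listed PRC1.6 genes, and both products also serve in other complexes. The other 12 PRC1.6 genes were not called by edgeR, with log2 fold changes from -0.44 for *Tfdp1*, which encodes DP1 (adjusted p = 0.051), to 0.75 for *Ring1* and 0.78 for *Yaf2* (adjusted p = 0.35 and 0.37). *Mga* was at 1110 and 1095 CPM in WT and at 859 and 939 CPM in KO2, a log2 fold change of -0.29 that edgeR did not call (adjusted p = 0.096) and DESeq2 called lower (adjusted p = 0.036). The 7 H3K9 methylation genes had log2 fold changes between -0.13 and 0.27 (adjusted p = 0.20 to 0.997). The part of these genes in the levels of the germline genes was not tested.

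Of the 15 called germline and meiosis genes, *Dazl*, *Tex15*, *Fkbp6*, *Stk31* and *Tdrd12* remained called in all 12 alternative analyses. *Sycp3* and *Stra8* lost their calls only without a filter on low counts (adjusted p = 0.053 and 0.12). Without that filter, edgeR called 61 genes in all and 5 of the 15. With normalization to the ERCC spike-ins, a mix of synthetic RNAs added to the samples, 163 genes in all and 8 of the 15 were called. *Stag3* lost its call in these 2 analyses (adjusted p = 0.078 and 0.55), and so did *Clgn* (adjusted p = 0.077 and 0.15). *Hormad1* (adjusted p = 0.17 and 0.58), *Mov10l1* (0.17 and 0.058), *Tex19.1* (0.22 and 0.72), *Syce1* (0.33 and 0.42) and *Sohlh2* (0.21 and 0.39) lost their calls in both as well, and *Taf7l* without the filter (adjusted p = 0.15). After thinning to the smallest library, *Syce1* and *Tex19.1* were not called (adjusted p = 0.075 and 0.073). None of the 15 changed direction in any alternative that gave a value, with *Taf7l* ranging from -4.18 to -2.56 on the log2 scale and *Stra8* from -3.18 to -1.95. For *Dazl*, the log2 fold change ranged from -2.26 to -2.09 over the 12 alternatives, and for *Tex15* from -2.77 to -2.29.

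**Figure D4:**
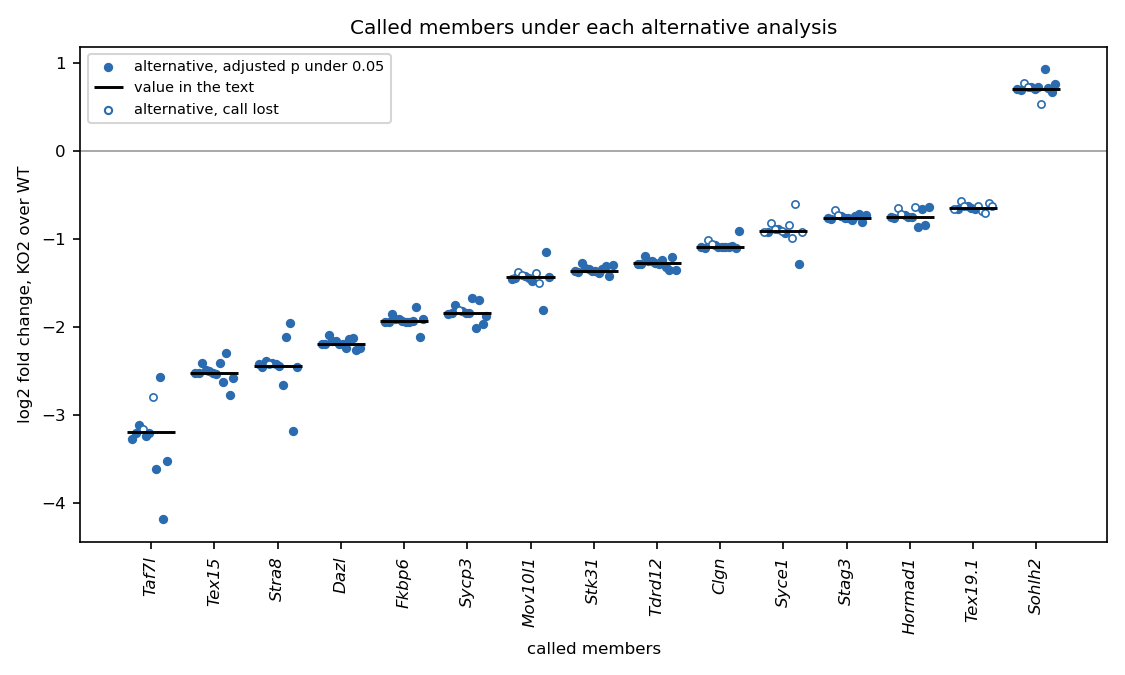
Log2 fold change of KO2 over WT of the 15 called genes in each alternative analysis (points) and as given in the text (black lines). Open points mark alternatives in which the adjusted p was not under 0.05. *Taf7l* and *Stra8* vary most, and every point stays on its side of 0.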

How the data were processed

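RNA-seq counts of 2 WT and 2 KO2 samples were analysed, with groups and replicate numbers taken from the sample labels. According to the methods, the authors made strand-specific libraries, mapped reads to mm9 with HISAT2 and counted them per gene with HTSeq. The raw counts deposited by the authors are per gene and replicate, without normalization or pooling. Versions, annotation and strand setting are not given in the sources used here. The 92 ERCC rows and 5 HTSeq summary rows were left out of library sizes and tests. Genes made up 41.2% to 47.1% of all counts.

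Identifiers were named with GENCODE vM1 (mm9), which matched 32782 of 48526 genes, and older symbols with RefSeq synonyms. *Majin* and *Meioc* carry the names 1700123I01Rik and Gm1564 there. Counts were analysed with edgeR 4.0.16 (limma 3.58.1, R 4.3.3) with TMM factors, filterByExpr (minimum count 10, minimum total 15, which amounts to 1.70 CPM in 2 samples), glmQLFit (legacy=FALSE) and glmQLFTest, fitted on condition alone. P-values were adjusted by the Benjamini-Hochberg method over the 12883 tested genes (threshold 0.05). CPM were scaled to the tested counts and TMM factors, and values are mean ± SD. Intervals and floors (3 counts) cover counting error only. The chi-square per gene between replicates was 6.36 in WT and 24.1 in KO2, above sampling noise. It was taken on raw counts and grows with depth, so the 2 values do not rank the groups by noise. The correlation of log2 CPM between replicates was 0.953 in WT and 0.978 in KO2. The fits were tested on simulated counts.

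Every one of the 45 genes was accounted for. Called genes were named with each sample's value, of those not called the largest absolute change per function group, and of the other lists the called genes. Values of further genes were added after they were seen. The 45 genes and the lists were chosen with earlier results of these data known. DESeq2 1.42.0, RLE or ERCC normalization, other filters, the older quasi-likelihood method, a replicate block, leaving out each replicate and, chosen after seeing the data, thinning to the smallest library were tried as alternatives.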

Additional observations from a re-analysis of the deposited data

How the results depend on the processing

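With 2 samples a group and 1 clone, these calls rest on few values, and leaving out a replicate leaves a lone sample that is assumed to vary like the other group. The cause of the differences between settings was not tested. The number of called germline and meiosis genes was 15 and became 8 with ERCC normalization (8 lower, 0 higher) and 5 without a filter on low counts (5 lower, 0 higher). It was 10 to 15 when a replicate was left out (0 to 1 higher), with 10 without WT replicate 1. Over all genes, 726 were called (391 lower, 335 higher), against 456 with DESeq2 (192 higher), 163 with ERCC normalization (73 lower, 90 higher), 61 without a filter (32 lower, 29 higher) and 270 to 691 when a replicate was left out (149 to 351 lower, 121 to 340 higher). The lowest of these, 270, was without WT replicate 1, and 420 and 466 were called without WT replicate 2 and KO2 replicate 1. Of the wider list, 6 were called, against 1 with ERCC normalization, 0 without a filter and 0 to 6 when a replicate was left out.

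Samples with the same replicate number did not deviate together (correlation -0.01), so the number pairs no samples. The replicate block gave 946 calls over all genes and 17 among the germline and meiosis genes.

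Directions that were reversed concern genes that were not called. *Hsf2bp* moved to 0.043 with ERCC normalization and *Smc1b* to -0.056 after thinning. When a replicate was left out, the log2 fold change ranged from -0.18 to 0.059 for *Hsf2bp*, -0.33 to 0.54 for *Smc1b*, -0.79 to 0.32 for *Piwil2*, -0.42 to 3.13 for *Mael*, -0.71 to 0.090 for *Ddx4*, -0.18 to 0.85 for *Tdrd7* and -1.76 to 0.38 for *Dnd1*.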
